A study of Chlamydomonas reinhardtii with 20 samples.

Results

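The 129 gene IDs described here, of 17737 measured in the green alga Chlamydomonas reinhardtii, rose with fed biliverdin in both the wild type and an hmox1 mutant while changing by less than a set limit when dark-grown cells were lit. They were chosen from the measured values, on log2(group mean RPKM + 1), where RPKM is a read count scaled to gene length and library total. The rise with biliverdin had to be at least 1 on that scale in both strains. The changes from dark to 0.5 h and to 4 h of light had to lie between -1 and 1 in both complemented lines of the mutant. Of all IDs 292 (1.65%) met both biliverdin limits and 13277 (74.9%) met all 4 light limits. The members are the 129 IDs that met both, 44.2% of those past the biliverdin limits, and the cap of 200 in the rule was not reached.

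RNA was sequenced from 20 libraries, 2 labelled biological replicates in each of 10 groups. The wild type 4A+ and the mutant hmox1 were sampled after 4 h of white light, each grown with 0.1 mM biliverdin IXα (BV) or with 0 mM. The lines ho1C1 and ho1C2, labelled as hmox1 complemented strains, were sampled at 0 mM BV, either dark-grown or lit for 0.5 h or 4 h with white light. Dark growth took place in acetate medium that held methanol, the vehicle, with or without BV in every culture, so BV was present from inoculation onward and not from the start of light. The protocol text names a light period of 30 minutes alone, and the groups follow the labels of the single samples. BV was therefore tested only in lit cells of 4A+ and hmox1, and light only in cells of the complemented lines without BV. The sources used here do not say how the mutant was made, what the complementing construct was, or how replicates were separated. The p-values therefore reflect the spread of these libraries only, which may be technical. The transcript of the mutated gene is not analysed here, and the strain labels were not checked against it.

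Biliverdin is a bilin, a linear tetrapyrrole that heme oxygenase makes by opening the ring of heme. Bilin reductases convert it further, and in plants and cyanobacteria bilins serve as chromophores of phytochromes and phycobiliproteins. Chlamydomonas makes bilins but has no phytochrome, and the title of the series concerns bilin-dependent acclimation to light. The deposited table names genes by ID alone, and the RefSeq gene table of assembly v5.5 gave 0 symbols other than locus tags. Members are therefore described by level, by response and by position, with no gene name or function.

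Across the series, replicate libraries correlated at 0.9929 to 0.9980 over tested genes. The 2 libraries of hmox1 without BV stood furthest apart, with a median absolute replicate difference of 0.155 on the log2 scale against 0.07 to 0.0886 in the other groups. Read totals were not used, but steps among low values gave relative depths from 0.59 in replicate 2 of hmox1 without BV to 1.93 in replicate 2 of ho1C1 at 4 h. The 2 libraries of hmox1 with BV had relative depths of 0.64 and 1.48. All values are relative to the library total, so a change in RNA per cell cannot be told apart from a change in the rest of the transcriptome.

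Without BV most members were weakly expressed, and their median level was lowest in the wild type. The rule favours low values in 4A+ and hmox1 without BV and high values with it, so these levels only describe the members. In 4A+ without BV the median member level was 0.605 RPKM, 74 of the 129 had a group mean under 1 RPKM and 12 reached 10 RPKM. With BV 0 members were under 1 RPKM in either strain, the median was 7.64 RPKM in 4A+ and 11.9 RPKM in hmox1, and 57 and 71 members reached 10 RPKM. In hmox1 without BV the median was 1.62 RPKM, with 46 members under 1 RPKM. The complemented lines had medians from 1.52 RPKM in ho1C1 at 4 h to 2.46 RPKM in ho1C2 in the dark, with 35 to 54 members under 1 RPKM.

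The summed level of all members was 1315 ± 20.2 RPKM in 4A+ without BV (SD, n = 2) and 5286 ± 47.3 RPKM with BV. In hmox1 it was 2430 ± 119 RPKM without and 7569 ± 397 RPKM with BV. The complemented lines ranged from 1745 ± 69.4 RPKM in ho1C1 at 0.5 h to 2931 ± 57.6 RPKM in ho1C2 at 4 h. A single member, Cre03.g156900, made up 768.7 RPKM of the sum in 4A+ without BV and 2123 RPKM with BV. It made up 313.1 RPKM in ho1C1 at 0.5 h and 1182 RPKM in ho1C2 at 4 h. The sums, and their range over the complemented lines, therefore follow this gene in large part. In these sums both BV groups stood above all 8 groups without BV, and 4A+ without BV was the lowest of the 10 groups. The rule favours this order, since each member had to rise with BV in both strains, so the order is description only.

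**Figure D1:**
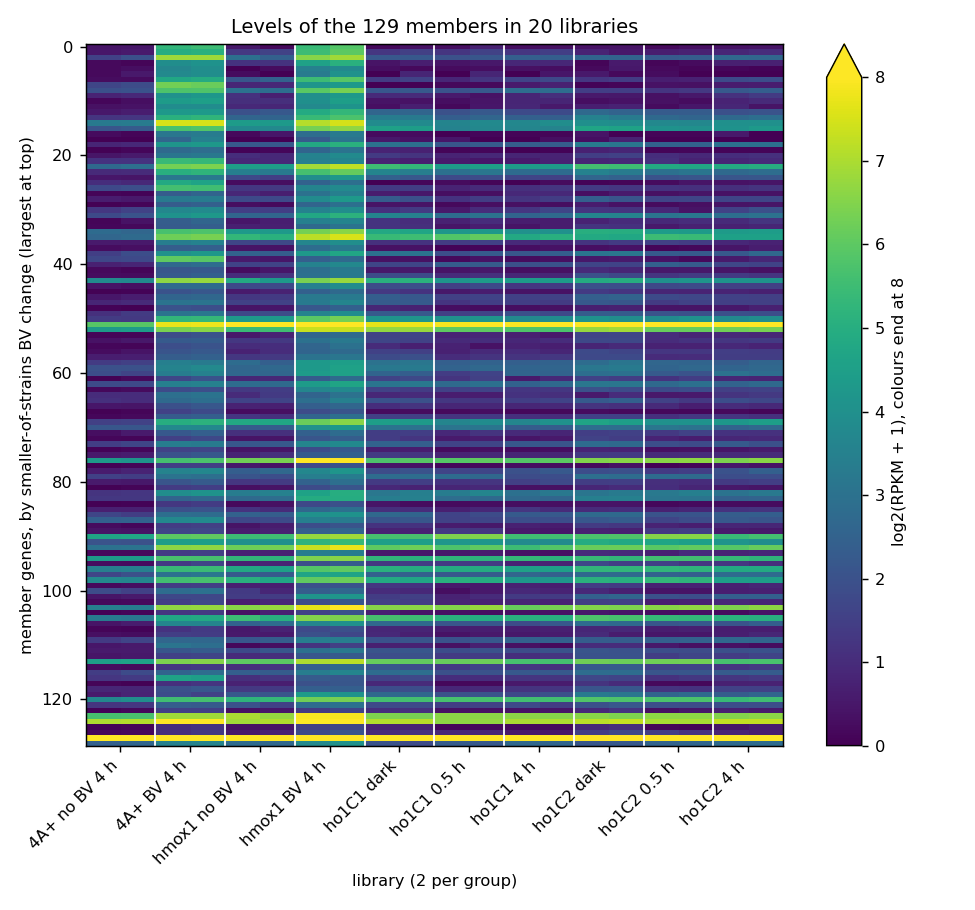
Levels of the 129 members (rows) in the 20 libraries (columns, 2 per group), as log2(RPKM + 1) by colour. The 4 libraries with BV are the brightest columns, with member medians of 7.64 RPKM in 4A+ and 11.9 RPKM in hmox1, and 4A+ without BV is the darkest at 0.605 RPKM. The rule that chose the members favours this order.

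The rise with BV is what chose these genes, and its sizes are given without a test. On the log2(RPKM + 1) scale the change ran from 1.01 to 5.04 in 4A+, with a median of 1.90, and from 1.01 to 5.27 in hmox1, with a median of 1.80. In 42 members it was at least 2 in both strains and in 13 at least 3, while in 15 the smaller of both changes was under 1.1. The change was larger in 4A+ for 76 members and larger in hmox1 for 53. The median of the hmox1 change minus the 4A+ change was -0.09 over members and -0.12 over all tested genes. With median-ratio factors these medians were -0.09 and 0.01. In a limma fit over all 13871 tested genes, the change of 129 members was called higher at an adjusted p under 0.05 in each strain, where 32.1% of tested genes were called higher in 4A+ and 20.5% in hmox1. The rule used these contrasts, so nothing is read from those counts. All 129 members passed the filter of at least 1 RPKM in 2 or more libraries, which the BV limits made all but certain.

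**Figure D2:**
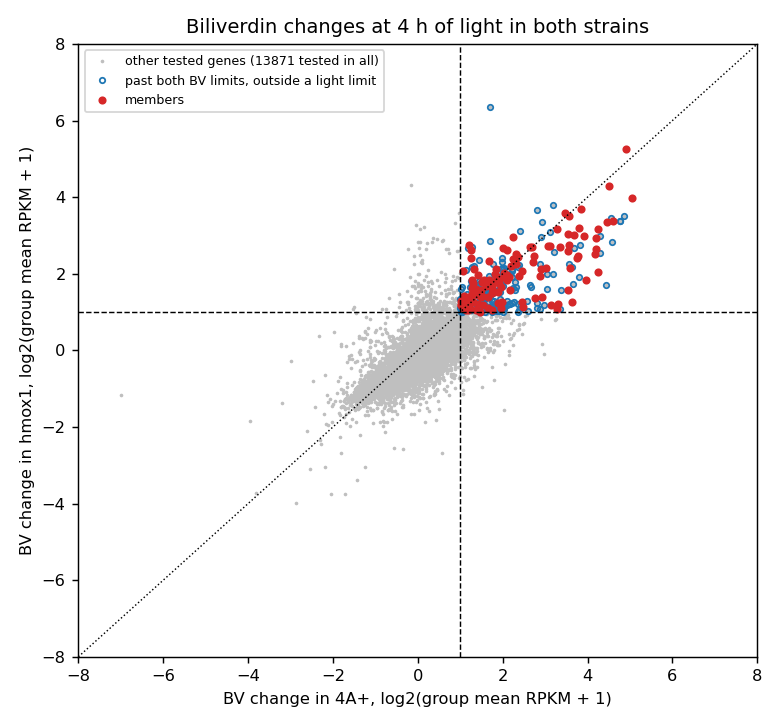
BV change in hmox1 (y axis) against BV change in 4A+ (x axis), both in log2(RPKM + 1) units after 4 h of light. Members lie past the limit of 1 in both strains by construction and reach 5.04 in 4A+ and 5.27 in hmox1.

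The member with the largest rise, ranked by the smaller of both strains' changes, was Cre02.g089500. Its libraries stood at 0.37 and 0.41 RPKM in 4A+ without BV and at 37.1 and 43.7 RPKM with BV. In hmox1 they stood at 0.44 and 0.14 RPKM without and 40.8 and 56.7 RPKM with BV. All 12 libraries of the complemented lines lay between 0.12 and 0.65 RPKM, so the transcript was at trace level in every library without BV and abundant in all 4 with it.

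Cre11.g468800 stood at 0.39 and 0.49 RPKM in 4A+ without BV and 30.6 and 32.7 RPKM with it, and at 1.53 and 2 and then 43.7 and 62.1 RPKM in hmox1. The complemented lines held it at 1.36 to 1.96 RPKM in ho1C1 and 0.44 to 1.02 RPKM in ho1C2, over all light times, so the lines did not overlap with each other. The next member, g14305, started from 1.93 and 2.91 RPKM in 4A+ and 6.71 and 4.42 RPKM in hmox1 and reached 112 and 112 RPKM and 91.8 and 114 RPKM with BV. Its strains overlapped with BV and not without it.

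The members g9538 and g9535 kept hmox1 above 4A+ in both BV states. For g9535 the libraries without BV were at 0.2 and 0.17 RPKM in 4A+ and 3.41 and 4.62 RPKM in hmox1, and those with BV at 26.04 and 29.5 and 43.6 and 59.1 RPKM. For g9538 they were at 0.14 and 0.09 RPKM and 1.27 and 1.24 RPKM without BV, and at 14.2 and 16.1 and 23.1 and 33.1 RPKM with it. In neither gene did the strains overlap. g8556 was at most 0.78 RPKM in the 16 libraries without BV, several of which were listed at 0, and stood at 12.5 and 14.3 RPKM in 4A+ and 9.08 and 15.6 RPKM in hmox1 with BV.

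**Figure D3:**
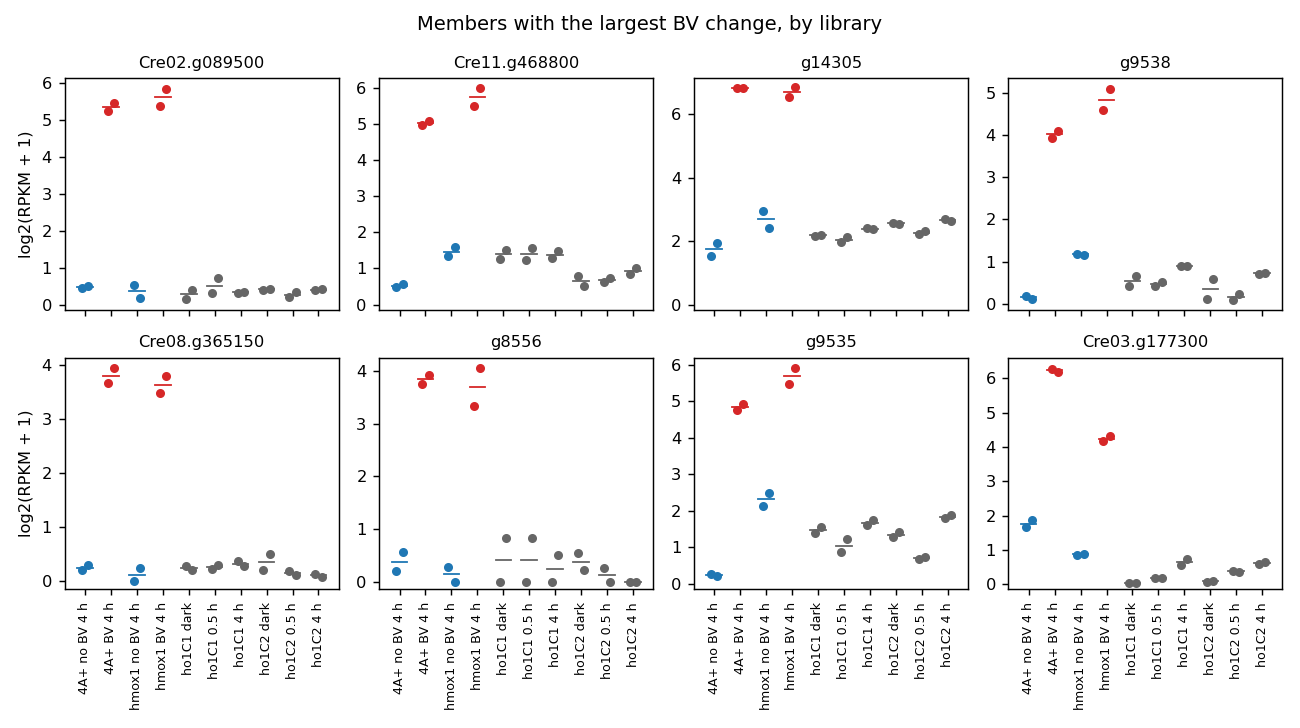
The 8 members with the largest smaller-of-strains BV change, shown by library and group on the log2(RPKM + 1) scale. The BV libraries stand above all others in each panel, and Cre03.g177300 is the panel with 4A+ (76.8 and 71.1 RPKM with BV) far above hmox1 (16.9 and 18.8 RPKM).

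Members differed in how much of them was present without BV. In 23 members all 8 groups without BV were under 1 RPKM, and with BV their median level was 3.54 RPKM in 4A+ and 5.71 RPKM in hmox1. Of these, 5 reached 10 RPKM in a BV group: Cre02.g089500, Cre08.g365150, g8556, Cre08.g365300 and Cre03.g177250, named after their values were seen. In the same band g8552, also named after its values were seen, was listed at 0 in all 4 libraries of 4A+ and hmox1 without BV and stood at 5.17 and 10.1 RPKM in 4A+ and 3.9 and 7.36 RPKM in hmox1 with it. In 78 members the highest group without BV lay at 1 to 10 RPKM, and their median levels with BV were 6.16 and 9.95 RPKM. In the remaining 28 members it was 10 RPKM or more, and the medians with BV were 52.8 RPKM in 4A+ and 92.7 RPKM in hmox1.

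The most abundant member, Cre03.g156900, was also one of the 2 nearest to the BV limit. It stood at 763 and 774 RPKM in 4A+ without BV and 2166 and 2080.4 RPKM with it, and at 967 and 817 and then 1911 and 1677 RPKM in hmox1. In ho1C1 it went from 595 and 584 RPKM in the dark to 316 and 309.7 RPKM at 0.5 h and 926 and 881 RPKM at 4 h. Light thus lowered it and then raised it past the dark level, within the limit of the rule.

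Cre09.g396100 was next in level and had, among members higher in hmox1, the largest log2 difference between strains with BV. It stood at 59.98 and 59.6 RPKM in 4A+ without BV and 213 and 222 RPKM with it. In hmox1 it stood at 323 and 322 RPKM without BV, already above 4A+ with BV, and at 1377 and 1438 RPKM with BV. The complemented lines lay between 202 and 549 RPKM, with ho1C2 above ho1C1 at each light time. Cre03.g175400 overlapped between strains without BV, at 128 and 134 RPKM in 4A+ and 119 and 131 RPKM in hmox1. With BV it was at 284 and 297 RPKM in 4A+ and 262 and 257 RPKM in hmox1, without overlap and slightly lower in hmox1 (log2 difference -0.16, SE 0.06, limma adjusted p = 0.0203). Cre05.g244950 went from 49.97 and 50.8 to 115 and 115 RPKM in 4A+ and from 124 and 104 to 239 and 236 RPKM in hmox1, so that the wild type with BV lay near the mutant without it.

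At the BV limit, the members just inside were g9004, with a smaller-of-strains change of 1.006, and Cre03.g156900, with 1.007. Just outside were Cre08.g384250 at 0.986 and Cre03.g170200 at 0.983. At the light limit g11753 was just inside, with a largest light change of 0.987 in size, and Cre02.g077550 just outside at 1.01. Both of these genes rose strongly with BV: g11753 went with BV from 5.7 and 6.6 to 79.6 and 84.7 RPKM in 4A+, and Cre02.g077550 from 5.22 and 6.09 to 46.1 and 50.1 RPKM.

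For most members the BV libraries stood above the whole range of the complemented lines. In 104 of 129 (80.6%) all 4 libraries with BV were above all 12 libraries of ho1C1 and ho1C2, which held for 2.94% of tested genes. In 103 (79.8%) they were above all 16 libraries without BV, against 2.16% of tested genes. The rule favours both counts, since it asked for a rise in each strain, but it set no limit on levels in the complemented lines. Within the BV groups, replicate 2 of hmox1 was above replicate 1 in 118 of 129 members (91.5%), against 43.3% of tested genes, with a median difference of 0.28 on the log2 scale. In 4A+ with BV replicate 2 was the higher in 105 members (81.4%, against 56.3%, median 0.10), and the same was found without BV in ho1C1 at 0.5 h (105 members, against 48%, median 0.10). Without replicate 1 of hmox1 with BV the rule gave 132 genes, 128 of them among the 129, and without replicate 2 it gave 124, all among the 129.

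Light moved many members within the limits, so the label of genes not moved by light holds only in the sense of that limit. At 0.5 h 70 members were called lower and 8 higher than in the dark in ho1C1 (limma, adjusted p under 0.05), against 59.5% and 21.7% of tested genes. In ho1C2 75 were lower and 8 higher, against 56.2% and 22.6%. At 4 h 75 were lower and 11 higher in ho1C1, against 43.5% and 26%, and 70 and 13 in ho1C2, against 45.6% and 22.6%. The rule bounded these changes, so the counts only describe the members. Scaling mattered at 0.5 h: median-ratio factors moved the median of all tested genes by 0.37 in ho1C1 and 0.30 in ho1C2, and the members called were then 40 lower and 25 higher in ho1C1, against 38.8% and 38.5% of tested genes. In ho1C2 they were 40 and 24, against 37.9% each way. At 4 h in ho1C2 those factors gave 57 lower and 20 higher, against 33.3% and 31.4%. Under the deposited scaling, leaving out replicate 1 of ho1C2 in the dark gave 8 members higher at 4 h in that line.

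In 78 members (60.5%) the level was below dark in all 4 light changes, against 47.9% of tested genes, and in 7 it was above dark in all 4, against 16.9%. The change was called lower each time in 50 members (38.8%), against 32.6%. The median light change lay between -0.37 and -0.29 in the 4 contrasts. Over all tested genes the medians at 0.5 h were -0.38 in ho1C1 and -0.31 in ho1C2, and those at 4 h were -0.13 and -0.16. Under the deposited scaling the members at 0.5 h thus fell no further than tested genes at large, and the rule bounded their fall. With median-ratio factors the members' medians at 0.5 h were -0.09 and -0.12, against -0.01 in each line over all tested genes. At 4 h those factors gave -0.26 and -0.20, against 0.01 and -0.02. The counts of 78 and 50 rest on the deposited scaling. In 52 members (40.3%) no light change passed 0.5 in size, against 28.2% of tested genes. In 16 (12.4%) no light change was called, against 5.36% of tested genes, and the rule's limits favour both counts. Among the 16 were the 3 leading members Cre02.g089500, Cre11.g468800 and g14305. Near the upper end, Cre01.g001400 went in ho1C1 from 2.17 and 2.16 RPKM in the dark to 4.18 and 3.94 RPKM at 0.5 h and 2.89 and 3.05 RPKM at 4 h. In ho1C2 it went from 2.22 and 2.02 to 4.48 and 3.87 and then 2.26 and 2.08 RPKM. The 0.5 h libraries were the highest of each line. At the falling end, g11753 went from 44.3 and 38.5 RPKM in the dark to 19.97 and 22.3 RPKM at 0.5 h in ho1C1.

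Adding 1 RPKM before taking logs compresses the changes of weak genes, so the light limit was easier to meet at low levels. Cre03.g177300 shows this. It went in ho1C1 from 0.02 and 0.03 RPKM in the dark to 0.13 and 0.14 RPKM at 0.5 h and 0.49 and 0.66 RPKM at 4 h, and in ho1C2 from 0.05 and 0.07 to 0.32 and 0.27 and 0.52 and 0.57 RPKM. The light libraries were above the dark ones in both lines, yet the largest change counted as 0.620. With a pseudocount of 0.1 the rule gave 126 genes, of which 73 were among the 129.

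The first comparison that the rule did not use set hmox1 beside 4A+ after 4 h of light without BV. Most members were higher in the mutant. Of the 129, 105 (81.4%) were called higher and 8 (6.2%) lower in hmox1 (limma, Benjamini-Hochberg adjusted p under 0.05), against 53.5% and 11.8% of tested genes. The median difference was 0.66 on the log2(RPKM + 1) scale, against 0.24 over all tested genes. With median-ratio factors, which shifted the median of all tested genes by -0.24, 96 members were higher and 10 lower with a median of 0.49, against 30.5% and 30.2% of tested genes. In 110 members (85.3%) both hmox1 libraries were above both 4A+ libraries, which held for 61.8% of tested genes.

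The libraries of this comparison also enter the BV contrasts, where a low value without BV in either strain favours membership. Weak genes as a class also differed between the strains. Over 2197 other genes with a mean of 0.2 to 1 RPKM, the median was 0.23 and 0.24 RPKM in the libraries of 4A+ without BV and 0.44 and 0.45 RPKM in those of hmox1. The part of this in the members' difference was not tested. Of the 23 members under 1 RPKM in all groups without BV, 13 were called higher and 1 lower, against 53.5% and 11.8% of tested genes. Their median difference was 0.23, against 0.24 over all tested genes. Adding 1 RPKM compresses differences at such low levels, so these medians do not show whether this band stood out. Of the 28 members that reached 10 RPKM in some group without BV, 27 were higher and 0 lower, with a median of 1.53. A high value in hmox1 could itself place a gene in that band. Shares of tested genes within the same level bands were not computed, so the bands only describe the members.

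The largest strain differences without BV were those of g17202 and Cre17.g696700. g17202 was at 9.78 and 9.23 RPKM in 4A+ and 95.3 and 107 RPKM in hmox1 (log2 difference 3.28, SE 0.11, limma adjusted p = 9.66e-13). With BV it rose to 101 and 106 RPKM in 4A+, about the level of the mutant without BV, and to 203 and 268 RPKM in hmox1. Cre17.g696700 was at 1.84 and 1.97 RPKM in 4A+ and 27.6 and 26.3 RPKM in hmox1 (log2 difference 3.27, SE 0.14, limma adjusted p = 7.70e-12), and at 30.9 and 34.4 RPKM in 4A+ with BV. In 32 members the 4A+ level with BV was under 2 times the hmox1 level without BV, and in 5 it was below it, as for Cre09.g396100 and g17376. The shares over tested genes were not computed and the rule used both groups, so these counts only describe the members.

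Lower in the mutant were 8 members. Cre16.g671400 was at 2.24 and 2.41 RPKM in 4A+ and 0.48 and 0.41 RPKM in hmox1 without BV (log2 difference -1.20, SE 0.11, limma adjusted p = 3.05e-08). Cre03.g177300 was at 2.17 and 2.64 RPKM in 4A+ and 0.82 and 0.85 RPKM in hmox1 (log2 difference -0.89, SE 0.08, limma adjusted p = 5.77e-08). Neither gene had overlapping libraries. The other 6 were Cre03.g177250, Cre13.g585500, Cre13.g585550, Cre08.g377950, Cre02.g079450 and g11665, the last 3 named after their values were seen.

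With BV in both strains, most members were again higher in hmox1. Of the 129, 100 (77.5%) were called higher and 11 (8.53%) lower by limma, against 34.9% and 15% of tested genes, with a median difference of 0.61 against 0.10. With median-ratio factors, which shifted the median of all tested genes by -0.12, 89 were higher and 14 lower, against 24.1% and 27% of tested genes. Leaving out replicate 1 of hmox1 with BV gave 104 higher and leaving out replicate 2 gave 86. In 102 members both hmox1 libraries were above both 4A+ libraries, which held for 49.8% of tested genes. Its libraries also enter the BV contrasts of the rule, as do those of the comparison without BV, so the members' agreement between the comparisons is a description. Members higher in hmox1 in both numbered 95 (73.6%), against 28.9% of tested genes. That is 90.5% of the 105 and 95% of the 100, where the same shares over tested genes were 54% and 82.7%. The 8 members lower without BV were also lower with it, and the share of tested genes lower in both was not computed. Cre03.g156900 alone was called higher without BV (log2 difference 0.21, SE 0.07, limma adjusted p = 0.00923) and lower with it (log2 difference -0.25, SE 0.07, limma adjusted p = 0.00426).

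Among members higher in hmox1, the largest log2 differences with BV were those of Cre09.g396100 (log2 difference 2.69, SE 0.06, limma adjusted p = 2.42e-16), whose levels are given above, and of g17376. g17376 was at 48.4 and 52.7 RPKM in 4A+ and 299.7 and 326 RPKM in hmox1 with BV (log2 difference 2.61, SE 0.09, limma adjusted p = 5.21e-14), and at 19.5 and 16.8 and 75.6 and 82.2 RPKM without it. In the other direction, and larger in size, Cre16.g671400 was at 63.97 and 59.6 RPKM in 4A+ and 4.36 and 5.66 RPKM in hmox1 (log2 difference -3.39, SE 0.11, limma adjusted p = 2.31e-14). The strains were far apart in each of these genes. Cre09.g409300 was at 24.1 and 21.6 RPKM in 4A+ and 3.93 and 3.55 RPKM in hmox1 with BV (log2 difference -2.33, SE 0.09, limma adjusted p = 2.35e-13). Without BV it was at 1.38 and 1.56 RPKM in 4A+ and 1.12 and 1.35 RPKM in hmox1, a difference that was not called (log2 difference -0.15, SE 0.09, limma adjusted p = 0.159).

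**Figure D4:**
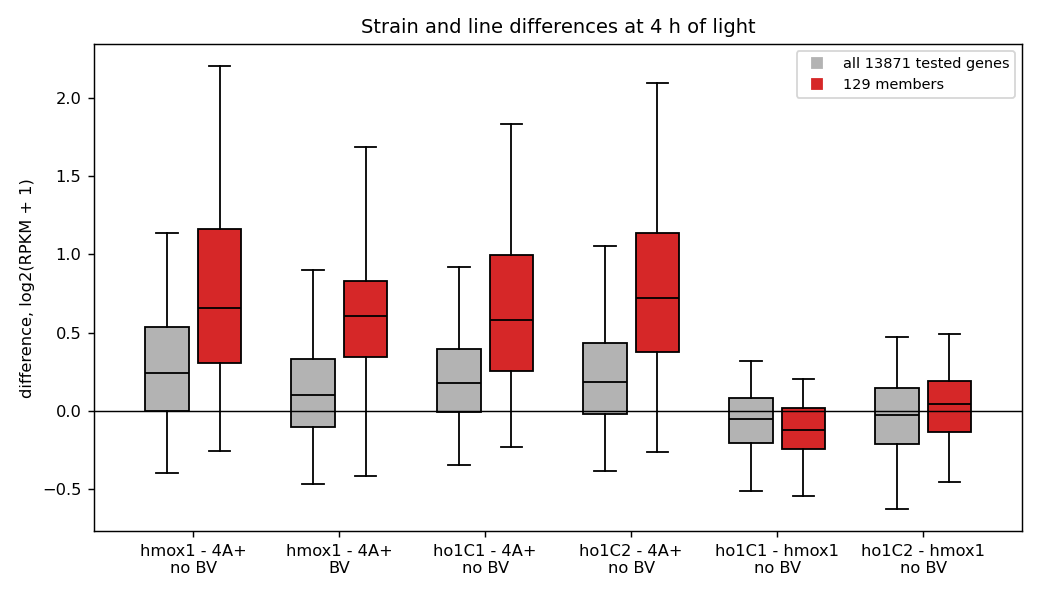
Differences between strains and lines on the log2(RPKM + 1) scale (y axis) for the 129 members (red) and all 13871 tested genes (grey), with boxes spanning the quartiles, the median as a line and whiskers from the 5th to the 95th percentile. Member medians are 0.66 and 0.61 for hmox1 against 4A+ without and with BV, against 0.24 and 0.10 over all tested genes.

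The complemented lines were compared with 4A+ and with hmox1 at 4 h without BV. Set beside 4A+, most members were higher in both lines. In ho1C1 98 were called higher and 7 lower by limma (median 0.58), against 43.5% and 9.76% of tested genes. In ho1C2 106 were higher and 7 lower (median 0.72), against 45.1% and 11.4%. With median-ratio factors, which shifted the median of all tested genes by -0.20 and -0.23, the counts were 86 and 10 in ho1C1, against 24.4% and 26.9% of tested genes, and 96 and 7 in ho1C2, against 25.2% and 31%. Both comparisons share their 4A+ libraries with that of hmox1 against 4A+, so the 3 are not independent. In 96 of 129 members (74.4%) all 14 libraries of hmox1 and the complemented lines without BV, dark ones included, were above both 4A+ libraries without BV, which held for 24.4% of tested genes. The rule used these libraries too: low values in 4A+ without BV favour membership, and the complemented lines set the light limits.

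Set beside hmox1, fewer members differed than beside 4A+, and so did fewer tested genes. In ho1C1 5 (3.88%) were called higher and 19 (14.7%) lower by limma (median -0.12), against 8.15% and 19.6% of tested genes. With median-ratio factors 7 were higher and 15 lower, against 12.6% and 12.6%. In ho1C2 22 (17.1%) were higher and 19 (14.7%) lower (median 0.04), against 16.1% and 22.9%. Median-ratio factors gave 24 higher and 18 lower there, against 18.8% and 19.7%. These 2 comparisons share the hmox1 libraries. Single libraries moved the counts: without replicate 1 of hmox1 3 members were higher in ho1C1, without replicate 1 of ho1C1 at 4 h 12 were lower there, and without replicate 1 of ho1C2 at 4 h 11 were lower in ho1C2. A p that misses the threshold does not show equal levels. Neither does a small log2 difference, since adding 1 RPKM compresses those of weak members. A difference of 1 or more, whose share over tested genes was not computed, was found for 0 members in ho1C1 and for 1 in ho1C2. That one was Cre10.g420561, at 4.34 and 4.5 RPKM in ho1C2 and 1.68 and 1.67 RPKM in hmox1 (log2 difference 1.02, SE 0.09, limma adjusted p = 3.21e-08).

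Cre05.g239700 was lower in both lines than in hmox1. It stood at 2.19 and 2.33 RPKM in hmox1, at 0.93 and 0.79 RPKM in ho1C1 (log2 difference -0.81, SE 0.10, limma adjusted p = 1.29e-05) and at 0.87 and 0.71 RPKM in ho1C2 (log2 difference -0.87, SE 0.10, limma adjusted p = 2.66e-06). With 4A+ at 0.49 and 0.46 RPKM, both lines lay between the mutant and the wild type. Cre17.g696700 was lower in ho1C1, at 11.9 and 15.4 RPKM (log2 difference -0.94, SE 0.14, limma adjusted p = 8.02e-05), though still well above 4A+. To a lesser degree it was lower in ho1C2 too, at 17.8 and 21.2 RPKM (log2 difference -0.45, SE 0.14, limma adjusted p = 0.0149). Cre03.g176150 was lower in ho1C2, at 22.3 and 22.5 RPKM against 38.6 and 33.1 RPKM in hmox1 (log2 difference -0.65, SE 0.11, limma adjusted p = 0.000176), with 4A+ at 5.29 and 5.73 RPKM.

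The members named for a higher level in a line than in hmox1 all lay further from 4A+ there than hmox1 did. These were g18056 and Cre10.g420561 in ho1C2, and Cre01.g001400 and Cre02.g083800 in ho1C1. Of these, g18056 was called higher than hmox1 in ho1C1 as well (log2 difference 0.29, SE 0.07, limma adjusted p = 0.00365). It was at 75.3 and 80.9 RPKM in ho1C2, 41.7 and 46.2 RPKM in hmox1 and 19.4 and 20.6 RPKM in 4A+ (log2 difference 0.82, SE 0.07, limma adjusted p = 2.59e-08 for ho1C2 against hmox1). Among the 5 members higher in ho1C1 than in hmox1 were Cre01.g001400, at 2.89 and 3.05 RPKM against 2.06 and 2.12 RPKM (log2 difference 0.36, SE 0.09, limma adjusted p = 0.0047), and Cre02.g083800, at 46.6 and 47.1 RPKM against 35.7 and 38.8 RPKM (log2 difference 0.32, SE 0.07, limma adjusted p = 0.00268). In the dark 10 members were higher and 3 lower in ho1C2 than in ho1C1, against 2.77% and 0.67% of tested genes. The higher count was 5 without replicate 1 and 4 without replicate 2 of ho1C1, and 4 without replicate 1 and 6 without replicate 2 of ho1C2. The widest difference was that of Cre10.g420561, at 4.46 and 5.12 RPKM in ho1C2 and 1.7 and 1.86 RPKM in ho1C1 (log2 difference 1.06, SE 0.09, limma adjusted p = 1.92e-07).

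The size of the rise with BV was compared between strains as an interaction in the same fit. The rule used both rises, though not their difference. Of the 129 members 15 rose more in hmox1 and 38 more in 4A+ (limma, adjusted p under 0.05), against 8.04% and 25.5% of tested genes. Together these are 53 members (41.1%), against 33.6% of tested genes, and 76 were not called. The median difference of the log2 changes was -0.09, against -0.12 over all tested genes, so the members' shares, 11.6% and 29.5%, lay near the background. That nearness depends on scaling: with median-ratio factors 16 members rose more in hmox1 and 39 more in 4A+, but the shares of tested genes became 15.8% and 16.3%. With a pseudocount of 0.1, 7 members (5.43%) rose more in hmox1 and 67 (51.9%) more in 4A+, against 7.42% and 26.9% of tested genes.

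The widest difference was that of Cre11.g481600. It went from 6.94 and 7.27 to 96.8 and 101 RPKM in 4A+ and from 73.7 and 80.1 to 156 and 217 RPKM in hmox1 (difference of log2 changes -2.38, SE 0.22, limma adjusted p = 2.44e-06), so the strains were closer with BV than without it. Cre16.g671400 also rose more in 4A+ (difference of log2 changes -2.19, SE 0.15, limma adjusted p = 4.49e-09), but there hmox1 was the lower strain in both states. In the other direction Cre10.g420561 went from 0.37 and 0.49 to 2.35 and 2.29 RPKM in 4A+ and from 1.68 and 1.67 to 16.6 and 17.4 RPKM in hmox1 (difference of log2 changes 1.53, SE 0.12, limma adjusted p = 1.78e-08). Cre05.g238450 went from 0.16 and 0.14 to 1.68 and 1.83 RPKM in 4A+ and from 0.7 and 0.66 to 9.29 and 9.37 RPKM in hmox1 (difference of log2 changes 1.36, SE 0.12, limma adjusted p = 8.39e-08). In both, hmox1 was the higher strain in each state and the gap was wider with BV.

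Some members lay side by side in the genome. The RefSeq v5.5 gene order held 101 of the 129 IDs, and 28 could not be placed. Of the 101, 12 (11.9%) had another member as an immediate neighbour, in 5 runs, 4 of them of 2 genes and the longest of 4. Among the other 11612 placed genes, 1.33% were immediate neighbours of a member. No source used here gives the build behind the table, so the order is that of RefSeq alone and no coordinates are printed. Neighbours that overlap or are near copies can share reads, and no source used here says how such reads were counted, so values within a run are uncertain to that extent.

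The longest run held Cre08.g365050, Cre08.g365100, Cre08.g365150 and Cre08.g365200. Cre08.g365150 was at 0.15 and 0.23 RPKM in 4A+ and 0 and 0.19 RPKM in hmox1 without BV, and at 11.7 and 14.3 and 10.1 and 12.8 RPKM with it. Cre08.g365100 was at 0.73 and 0.91 and 1.22 and 0.63 RPKM without BV, and at 15.7 and 17.8 and 14.6 and 18.3 RPKM with it. Cre08.g365050 went from 1.47 and 2.01 to 11.9 and 13.3 RPKM in 4A+ and from 1.81 and 1.77 to 10.6 and 14.1 RPKM in hmox1. The strains overlapped in these 3 genes in both BV states. Cre08.g365200 rose less, to 6.5 and 7.28 RPKM in 4A+ and 5.01 and 7.05 RPKM in hmox1. No strain difference was called for any of the 4 with or without BV, nor a difference of the rises. The gene before the run, Cre08.g365000, had a smaller-of-strains change of 0.10.

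The run of Cre03.g177250 and Cre03.g177300 rose further in 4A+. Cre03.g177250 went from 1.06 and 0.88 to 28.1 and 24.01 RPKM in 4A+ and from 0.19 and 0.24 to 4.77 and 6.64 RPKM in hmox1 (difference of log2 changes -1.33, SE 0.17, limma adjusted p = 6.47e-06). Its neighbour Cre03.g177300 reached 76.8 and 71.1 RPKM in 4A+ and 16.9 and 18.8 RPKM in hmox1 with BV (difference of log2 changes -1.10, SE 0.12, limma adjusted p = 1.23e-06). For both genes hmox1 was the lower strain in each state. Of the flanking genes, Cre03.g177200 was lower with BV in both strains, going from 123 and 127 to 54.8 and 54.7 RPKM in 4A+ and from 94.7 and 109 to 49.5 and 45.7 RPKM in hmox1. Cre03.g177350 was lower with BV in 4A+, from 58.9 and 60.7 to 39.5 and 35.96 RPKM, and slightly higher with it in hmox1, from 32.7 and 29.8 to 39.8 and 35.6 RPKM.

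The run of Cre13.g585500 and Cre13.g585550 had the same order of strains. Cre13.g585550 went from 1.24 and 1.25 to 41.4 and 38.9 RPKM in 4A+ and from 0.84 and 0.91 to 10.1 and 11.3 RPKM in hmox1 (difference of log2 changes -1.56, SE 0.14, limma adjusted p = 1.57e-07). Cre13.g585500 went from 2.39 and 2.75 to 47.5 and 46.1 RPKM in 4A+ and from 1.46 and 1.5 to 11.1 and 13.2 RPKM in hmox1 (difference of log2 changes -1.34, SE 0.13, limma adjusted p = 4.74e-07). The next gene, Cre13.g585600, fell short of the rule with a smaller-of-strains change of 0.88. The members of these runs on Cre03 and Cre13 IDs are 4 of the 8 that were lower in hmox1 in both BV states.

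In the run of Cre17.g714750 and Cre17.g714800 hmox1 was the higher strain. Cre17.g714800 was at 0.54 and 0.72 RPKM in 4A+ and 4.22 and 5.45 RPKM in hmox1 without BV (log2 difference 1.83, SE 0.16, limma adjusted p = 3.58e-08), and at 10.9 and 11.9 and 11.9 and 16.98 RPKM with it, where the difference was not called (log2 difference 0.30, SE 0.16, limma adjusted p = 0.128). Cre17.g714750 was at 0.09 and 0.05 and 0.87 and 0.59 RPKM without BV (log2 difference 0.69, SE 0.13, limma adjusted p = 0.000162), and at 4.02 and 4.95 and 6.83 and 10.1 RPKM with it (log2 difference 0.77, SE 0.13, limma adjusted p = 8.07e-05). The libraries of hmox1 were above those of 4A+ in both genes and both states. The fifth run, outside the rule for named genes, was Cre17.g735500 and Cre17.g735550. Cre17.g735500 went from 2.92 and 2.94 to 11.01 and 12.6 RPKM in 4A+ and from 5.27 and 5.49 to 18.5 and 22.8 RPKM in hmox1, again with hmox1 the higher strain.

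**Figure D5:**
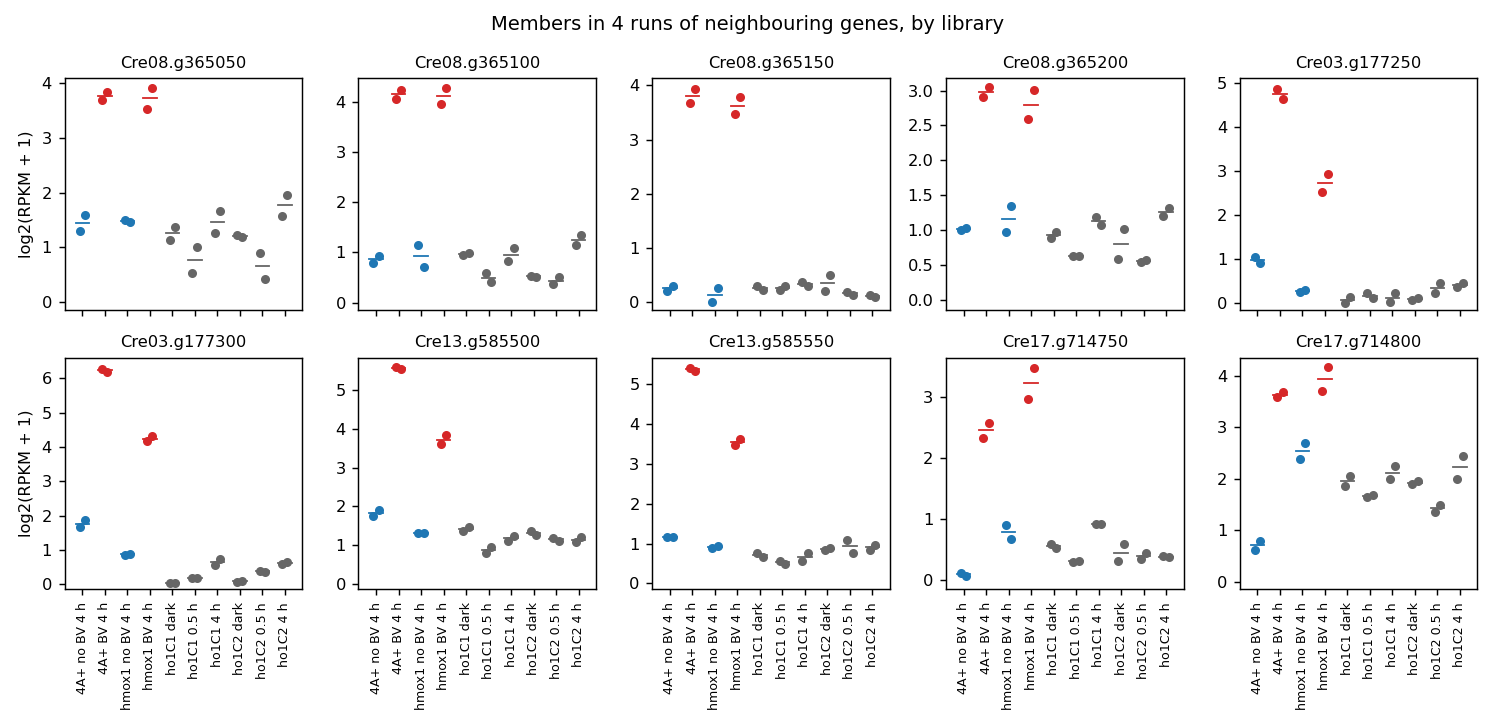
The 10 members of 4 runs of neighbouring genes, by library on the log2(RPKM + 1) scale, in red with BV, in blue for 4A+ and hmox1 without BV and in grey for the complemented lines. Both strains reach like levels with BV in the Cre08 run, 4A+ is the higher with BV in the Cre03 and Cre13 runs (for Cre03.g177300 76.8 and 71.1 RPKM against 16.9 and 18.8 RPKM in hmox1), and hmox1 is the higher in the Cre17 run.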

How the data were processed

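RNA was measured in 20 libraries of 10 groups. The authors used STAR 2.3.0 along with HTSeq, per the submitters' processing notes. No source used here gives the roles of these tools, the genome build, the annotation or the use of strand. The table deposited by the authors is taken to hold RPKM, a unit inferred from the values themselves, since no label or header names it. Their column sums ran from 718144.2 to 797204.39, and read totals are unknown. Relative depth came from the steps between low values: 99.8% of 414 values of 58 genes lay within 0.1 of a whole multiple. The depths were fitted to these same values, so that share is not an independent check. With the depths shuffled among libraries it was 36%. Counting intervals were not computed.

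Members followed the rule given in the report, and the members, lists and named genes were chosen with earlier results of these data known. Values were tested as log2(RPKM + 1) by limma 3.58.1 (R 4.3.3), with trend and robust moderation and 1 mean per group over all libraries (10 residual degrees of freedom). Genes with at least 1 RPKM in 2 or more libraries were tested (13871, with 3866 left out), with Benjamini-Hochberg adjustment over all of them, a threshold of 0.05 and simulated data to test the script. Fold changes on this scale understate those of low genes. Named genes were the 8 largest smaller-of-strains BV changes, the 6 highest levels with BV, the genes nearest the limits, the 2 largest called differences each way per comparison and the neighbour runs. Genes named outside that rule are marked. Alternatives were a pseudocount of 0.1, median-ratio scaling, no filter, a replicate block, other limits and leaving out each library. Promoter motifs and lists by annotation were not used here.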

Additional observations from a re-analysis of the deposited data

Results flagged for a closer look

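The rise with BV differed between hmox1 and 4A+ for 53 members (41.1%), against 33.6% of tested genes, by a limma test of the difference itself at an adjusted p under 0.05. Both rises were used to choose the members. Among the named genes with a called difference, the change in hmox1 was larger than that in 4A+ on the log2(RPKM + 1) scale by 1.53 for Cre10.g420561, 1.36 for Cre05.g238450, 0.54 for g17376 and 0.28 for Cre09.g396100. It was smaller in the other named genes with a called difference. The change in hmox1 minus that in 4A+ was -2.38 for Cre11.g481600, -2.19 for Cre16.g671400, -2.18 for Cre09.g409300, -2.11 for g17202, -1.97 for Cre17.g696700 and -1.56 for Cre13.g585550. It was -1.54 for Cre17.g714800, -1.45 for Cre03.g176150, -1.34 for Cre13.g585500, -1.33 for Cre03.g177250, -1.22 for g9535 and -1.10 for Cre03.g177300. It was -1.06 for g14305, -0.95 for g11753, -0.80 for Cre05.g239700, -0.70 for Cre02.g083800 and -0.46 for Cre03.g156900. Groups of 2 libraries are too small for a single library to be marked as standing apart.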

How the results depend on the processing

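Of the alternatives to counts, 267 left the count within 1.5 times its value and 17 moved it further. With median-ratio factors the members called at 0.5 h came to 25 higher in ho1C1 (40 lower) and 24 higher in ho1C2 (40 lower), with 20 higher at 4 h in ho1C2. With a pseudocount of 0.1, 7 members rose more with BV in hmox1 and 67 more in 4A+. A light limit of 0.5 gave 52 members and a BV limit of 1.5 gave 74. Leaving out 1 library gave 123 to 135 members. It gave 8 to 14 members higher at 4 h in ho1C2. Against hmox1 it gave 3 to 4 higher and 12 to 24 lower in ho1C1, and 11 to 15 lower in ho1C2. In the dark it gave 4 to 6 higher in ho1C2 than in ho1C1. The cause was not tested. In these fits the lone library of a group was assumed to vary like the others. The 448 alternatives for 48 results on named genes kept direction and call. Replicate numbers were not used to pair samples in the main fit, and whether same-numbered libraries belong together is not known. Over all tested genes, deviations of same-numbered libraries correlated at -0.10 to 0.33 over 45 pairs of groups. The median was 0.08 and 16 pairs passed 0.1, which does not settle the question. With the replicate number as a block, 105 members were higher and 8 lower in hmox1 without BV, 102 and 12 with BV, and 15 and 40 differed in their rise. Relative depth differed by up to 3.28 times between libraries, which limits values under 1 RPKM most.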
